A study of Mus musculus with 7 samples.

Results

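Cytochrome P450 enzymes are haem proteins that use oxygen and electrons from NADPH to oxidize lipids, hormones and foreign compounds. The genes described here are the rows of the kidney expression data whose symbols have the form of a cytochrome P450 gene (Cyp, a family number, a subfamily letter and a gene number), and the vitamin D enzymes Cyp24a1 and Cyp27b1 were left aside. These rules gave 101 genes of 24328 symbols, and 103 symbols had the form before the pair was left aside. Of the 101, Cyp3a41b and Cyp2w1 were at 0 in every library and 99 were above 0 in at least 1. Kidneys were compared between 3 LBR-null mice (mice 4001, 4002 and 4007; genotype Lbric-J/ic-J, a loss-of-function mutation of the lamin B receptor, which ties heterochromatin to the inner nuclear membrane) and 1 wild-type (WT) littermate (mouse 4009; Lbr+/+), to ask how the kidney transcriptome changes when this tether is lost. All 4 mice were C57BL/6J and 4 weeks old, ate the same standard chow and received no treatment. Each mouse gave 2 libraries, except mouse 4002, which gave 1. The mutation is carried by every cell of the body, and a single WT mouse stands for its genotype, so the spread between WT mice is unknown.

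In the kidney, P450 enzymes are most abundant in the proximal tubule. CYP4 enzymes hydroxylate fatty acids at the omega end, and their product 20-HETE acts on vessels and sodium transport. CYP2C and CYP2J enzymes turn arachidonic acid into epoxyeicosatrienoic acids, which soluble epoxide hydrolase breaks down. Members of the CYP1, CYP2 and CYP3 families clear drugs and other foreign compounds and are best known from the liver, and further P450 enzymes make steroid hormones and bile acids or remove retinoic acid.

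Levels are normalized counts, that is, reads on a gene divided by the size factor of the library, so they compare samples for 1 gene but not genes of different length. The 7 libraries held 20694016 to 26333284 reads on genes, and 1 read was worth 0.787 to 1.15 normalized counts. Lbr RNA itself overlapped between the genotypes, at 322, 340 and 471 normalized counts in mice 4001, 4002 and 4007 against 398 in the WT mouse, so its level does not check the labels. Kidney markers were present in every library, although 6 of 11 were lower in all LBR-null libraries, among them the proximal tubule genes Lrp2, Slc34a1, Slc5a2 and Slc22a6. The proximal tubule gene Slc5a12 was higher in all of them, at 11677 on average against 4580, and 2 of the 11 were higher throughout. In bulk tissue, fewer cells of a type and less RNA per cell cannot be told apart. The 12 liver markers, which include albumin and the fibrinogen chains, summed to 7395 and 7685 in the WT libraries and to between 13800 and 38663 in the LBR-null libraries, with 11 of 12 at least 2-fold higher on average. Library 1 of mouse 4001 had the highest sum, and none of the 12 was at 0. The labels give no sex: Xist stood at 5785 and 9940 in mice 4001 and 4007 and at 65.3 and 35.5 in mouse 4002 and the WT mouse. Y-linked Ddx3y stood at 141, 1516 and 44.3 in mice 4001, 4002 and 4007 against 1284. Eif2s3y was at 156, 2420 and 54.0 against 1477, and Kdm5d at 26.9, 526 and 8.27 against 507. Uty was at 39.0, 424 and 5.99 against 400. Mouse 4001 thus held more Y-linked RNA than the other high-Xist mouse, and the reason was not tested. Within the low-Xist pair the genotypes can be compared only as mouse 4002 against the WT mouse. The part of this Xist difference in the results was not tested beyond that pair.

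P450 genes were more often higher than lower in the LBR-null kidneys. Of the 99 genes above 0, 55 were at least 2-fold higher on average over the LBR-null mice and 8 were at least 2-fold lower, where the same share over all 21468 genes above 0 was 22.7% higher and 8.80% lower. The 55 include 6 genes without WT reads whose LBR-null mean was under 2 times the level of 3 reads over the WT libraries (Cyp11b1, Cyp11b2, Cyp2c65, Cyp2c53-ps, Cyp4x1 and Cyp2g1). With a group without reads set to that level, 49 members were 2-fold higher and 8 lower, beside 16.6% and 7.94% of all genes, and counts in mice, role lists and clusters are given on this basis. Counts in role lists and clusters are to be read beside these shares. Of the 8 lower genes, Cyp4f37, Cyp4a30b and Cyp4x1os rest on 2, 3 and 4 reads over all 7 libraries. Without mouse 4001, 38 members were 2-fold higher, beside 16.2% of all genes. All 5 LBR-null libraries lay above both WT libraries for 34 of the 99 and below both for 7, against 22.2% and 21.4% of all genes. The count of 2-fold higher members leans on rare genes, and it fell when 5 normalized counts were added to both groups, as given in the last section. Many of these genes are rare in the kidney, and only 27 had a mean of at least 100 normalized counts. Among these 27, 14 were 2-fold higher and 3 were 2-fold lower, beside 4.79% and 5.07% of the 11831 genes with such a mean, and 18 lay above and 3 below the WT libraries throughout, beside 22.2% and 29.3%. Cyp2d9, Cyp3a11 and Cyp26b1 reached this mean through the LBR-null mice alone, and no member through the WT mouse alone. Among the 24 members at or above 100 in both genotypes, 11 were 2-fold higher and 3 lower, beside 3.31% and 4.50% of 11363 genes. The median log2 fold change of the 74 genes with a mean of at least 5 was 0.88 ± 0.43 (SD of the 3 mouse medians), from 1.28 in mouse 4001 to 0.53 in both other mice, while the median of the 17283 genes with such a mean was 0.01. This limit lets in genes that are high in the LBR-null mice: 12 of the 74 were under 5 in the WT mouse, and none was under 5 in the LBR-null mice. The median of the 62 members at or above 5 in both genotypes was 0.68, and that of 15877 such genes was -0.04. Per mouse, 49 of 99 were 2-fold higher in mouse 4001, 32 in mouse 4002 and 40 in mouse 4007, against 17.1%, 14.2% and 18.3% of all genes. The direction therefore held in mouse 4002, whose Xist level was like that of the WT mouse, with 5 genes 2-fold lower there against 6.94% of all genes. In mice 4001 and 4007, 10 and 6 members were 2-fold lower, against 10.6% and 9.13%.

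None of the 74 genes passed the test across all genes, limma on the 4 mouse values with an adjusted p under 0.05 and a 2-fold difference, and neither did any other gene (0.00% of 17283). The smallest adjusted p among the members was 0.0584, for Cyp17a1. With mouse 4001 left out, limma called 10 of 72 members, beside 6.76% of all genes, and with mouse 4002 left out it called 9 of 75, beside 3.62%. At an unadjusted limma p under 0.05, 16 members were higher and 5 lower, beside 10.7% and 8.05% of all genes. edgeR on the recovered reads called no member (0.00579% of all genes higher, 0.156% lower). DESeq2 on the same reads called 11 members higher (Cyp17a1, Cyp27a1, Cyp2d9, Cyp2d22, Cyp2d26, Cyp2j9, Cyp2s1, Cyp4a10, Cyp4a14, Cyp4a29 and Cyp4f17) and 3 lower (Cyp1a1, Cyp2j5 and Cyp2j11), beside 3.08% and 3.33% of all genes. All 14 were genes whose libraries did not overlap between genotypes. With 3 mice against 1, an exact permutation test of a single gene cannot go below p = 0.25, so single-gene values are described by their levels in each library.

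**Figure D1:**
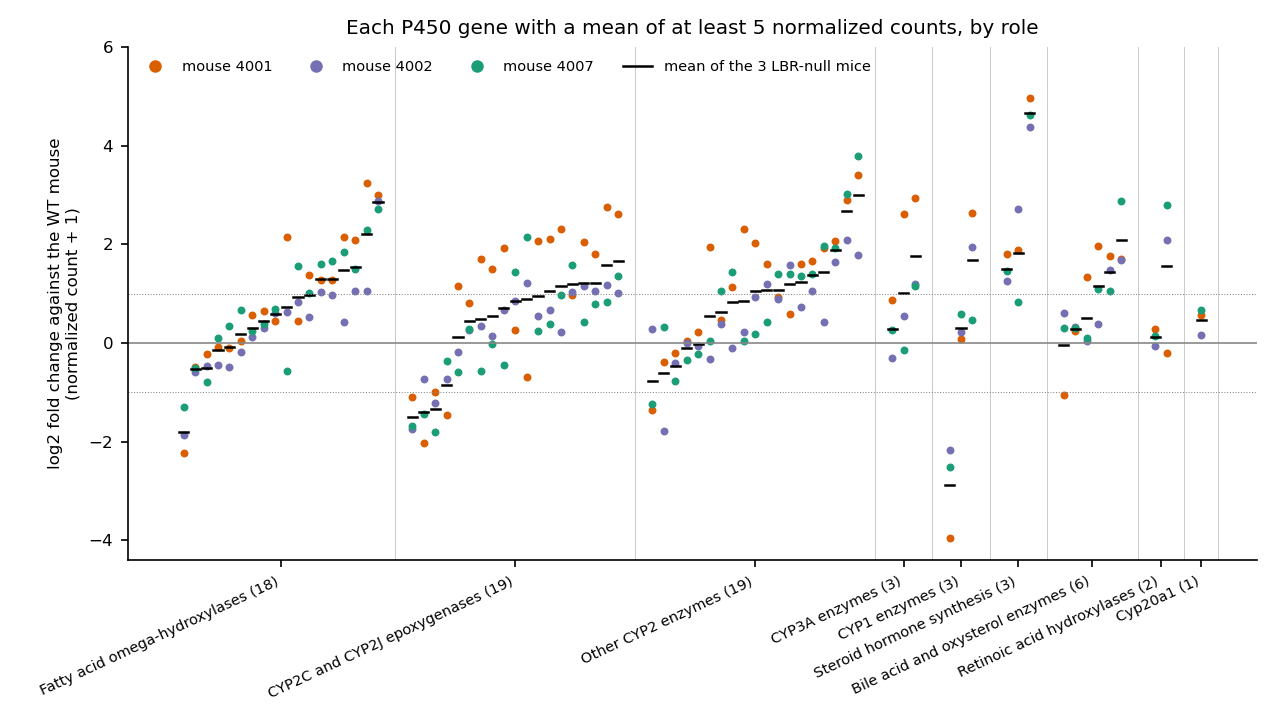
Log2 fold change against the WT mouse (y axis, on normalized count + 1) of the 74 P450 genes with a mean of at least 5, grouped by role and ordered by their mean within each group; coloured points are the 3 LBR-null mice, black lines their mean and dotted lines a 2-fold difference. Of the 74 means, 58 lie above 0, and mouse 4001 often lies above the other 2 mice.

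The make-up of the P450 transcript pool also differed. Divided by exon length, which allows genes to be compared, the 94 members with an annotated length summed to 27400.1 normalized counts per kb in the WT mouse and to 74586, 35468 and 53562 in mice 4001, 4002 and 4007, or 2.72, 1.29 and 1.95 times as much. In the WT kidney, Cyp2j5 was the most abundant member per length, with 32% of this sum. It came at rank 4 in mice 4001 and 4002 and at rank 7 in mouse 4007, with 5.92%, 10.6% and 4.70% of the sum. Cyp4a14 came at rank 4 in the WT mouse with 10% of the sum, at rank 1 in mice 4001 and 4007 with 35% and 25.2%, and at rank 3 in mouse 4002 with 16.2%, where Cyp2d26 came first with 23.7%. A few genes carried most of the pool in every mouse: the top 4 held 69.5% to 78% of it.

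**Figure D2:**
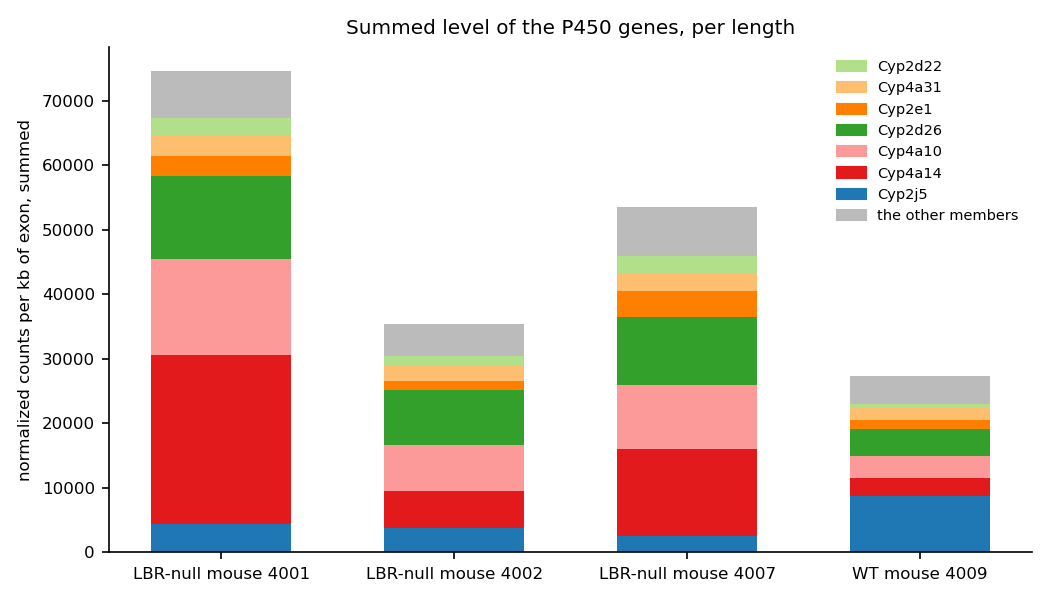
Stacked bars of normalized counts per kb of exon (y axis), summed over 94 P450 genes in each of the 4 mice, with 1 colour for each of 7 abundant genes and grey for the others. Cyp2j5 takes the largest block in the WT mouse and a smaller one in each LBR-null mouse, whereas Cyp4a14, Cyp4a10 and Cyp2d26 take the larger blocks there.

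The fatty acid omega-hydroxylases (Cyp4 genes) included Cyp4a14 and Cyp4a10, which were among the 3 most abundant members per length in each LBR-null mouse. Of 23 genes, 9 were 2-fold higher (all genes 16.6%) and 4 were 2-fold lower (all genes 7.94%). In every library, 11 lay above the WT mouse (all genes 22.2%) and 2 below (all genes 21.4%). Cyp4a12b was the only one of the 4 lower genes with more than 4 reads in all. Their median log2 fold change was 0.66 over 18 genes with a mean of at least 5. Cyp4a14, which hydroxylates medium- and long-chain fatty acids and is a classical target of PPARalpha, stood at 68464 and 67170.4 in mouse 4001, at 14921 in mouse 4002 and at 35421 and 34869 in mouse 4007, against 7059 and 7239 in the WT libraries. All LBR-null libraries were thus higher, but mouse 4001 exceeded mouse 4002 by more than mouse 4002 exceeded the WT mouse. The mean of 39294 ± 26691 (SD, n = 3 mice) was 5.50-fold that of the WT mouse, with a log2 fold change of 2.20 ± 0.80 (SE) and an limma adjusted p = 0.211. Cyp4a10, another PPARalpha target with the same activity, measured 30796 and 32292, then 15204, then 21421 and 20472 in mice 4001, 4002 and 4007, against 7328 and 7412. It kept the same order of mice, and its log2 fold change was 1.55 ± 0.47 (limma adjusted p = 0.160). Cyp4a31 differed less, at 7600.2 and 8500.3, 6308, and 6839 and 6538, against 5294 and 4939 (log2 fold change 0.45 ± 0.29, limma adjusted p = 0.453).

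Cyp4a29 was nearly silent in the WT kidney. Its libraries held 19.5 and 21.3, 18.9, and 21.4 and 11.8 normalized counts in mice 4001, 4002 and 4007 and 1.57 and 1.81 in the WT mouse. The 3 mouse means of 20.4, 18.9 and 16.6 were close together and 11.0-fold above the WT value, with a log2 fold change of 2.86 ± 0.53 (limma adjusted p = 0.0947). Cyp4b1, Cyp4f17, Cyp4a32 and Cyp4v3 also exceeded the WT mouse in each library of the LBR-null mice. Cyp4b1, which bioactivates several protoxins, stood at 3484, 1046 and 2832 in mice 4001, 4002 and 4007 against 783. Cyp4v3, which hydroxylates fatty acids in the retina and other tissues, stood at 574, 315 and 442 against 219. Cyp4f17 stood at 329, 279 and 411 against 135.

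In the opposite direction, Cyp4a12b was lower throughout. It measured 5.74 and 4.44, 6.88, and 11.2 and 10.03 in the LBR-null mice against 23.6 and 31.7 in the WT libraries, a 3.67-fold difference (log2 fold change -1.80 ± 0.60, limma adjusted p = 0.187). Its neighbour Cyp4a12a, with 8.01, 6.02 and 9.22 in the LBR-null mice and 8.52 in the WT mouse, overlapped. The pair share 35.8% to 36.2% of their 100-base words, so reads may have been split between them. The pseudogene Cyp4f41-ps was at 8.04 and 14.2, 10.3, and 10.2 and 11.8 against 15.7 and 16.3 (log2 fold change -0.53 ± 0.51, limma adjusted p = 0.630).

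**Figure D3:**
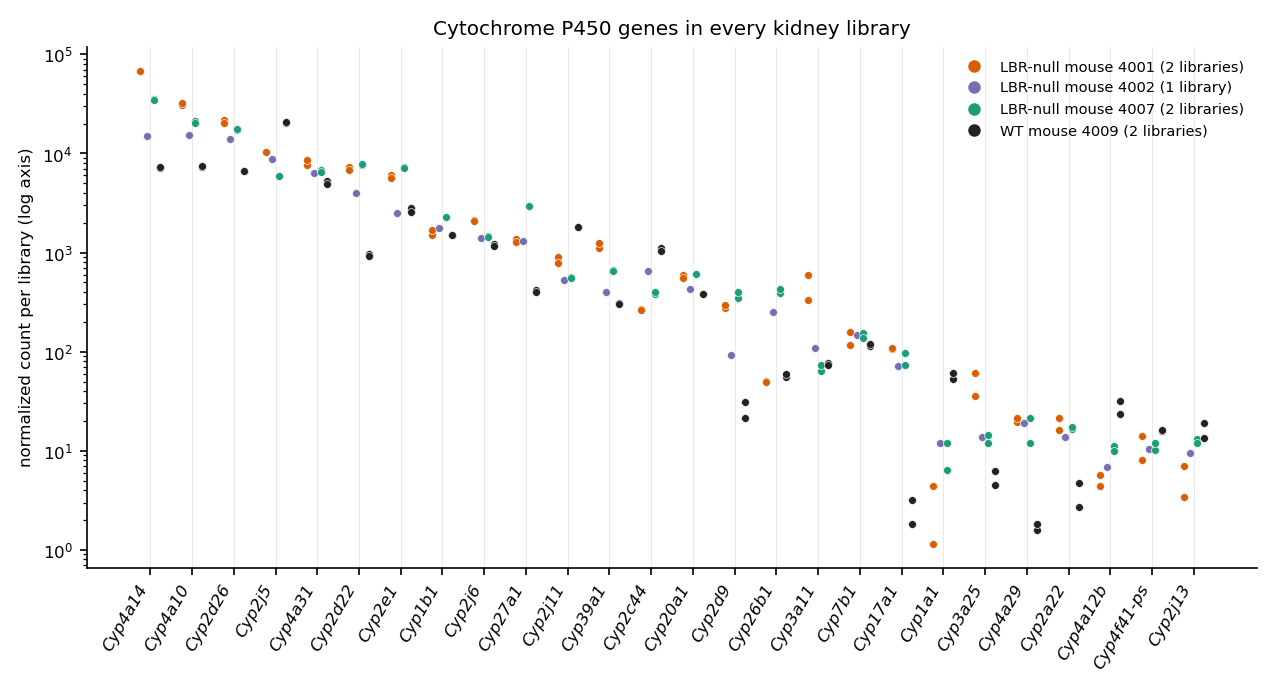
Normalized count in each of the 7 libraries (y axis, log scale) for 26 P450 genes, ordered by mean level; colours mark the 4 mice. Black WT points lie below the coloured points for Cyp4a14, Cyp2d22, Cyp27a1, Cyp2d9, Cyp17a1 and Cyp4a29 and above them for Cyp2j5, Cyp2j11, Cyp2c44, Cyp1a1 and Cyp4a12b.

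Among the epoxygenases (Cyp2c and Cyp2j genes), members went in both directions. Cyp2j5, Cyp2j11 and Cyp2c44 were lower, Cyp2j6 and Cyp2j9 were higher, and many rare members were higher. Of 23 genes, 12 were 2-fold higher (all genes 16.6%) and 3 were 2-fold lower (all genes 7.94%), and 6 lay above and 4 below the WT mouse in every library, shares near the 22.2% and 21.4% of all genes. Yet the summed level of the list was lower, at 9455 to 14840 normalized counts in the LBR-null libraries against 24961 and 25236 in the WT libraries, because Cyp2j5 makes up most of it. The Cyp2j genes form 1 cluster on chromosome 4 (mm9, chr4:95694225-96330845), and neighbours there went in different directions. The windows of 250 bases before the starts of 3 of them, taken from RefSeq (GRCm38.p6, all minus strand, written 5′ to 3′), are shown because Cyp2j5 and Cyp2j11 were lower and Cyp2j9 was higher in the same kidneys. They lie at chr4:96664120-96664369, chr4:96348681-96348930 and chr4:96591486-96591735. Capitals mark matches on either strand to AGGTCA (a nuclear receptor half-site), GCGTG (the core bound by the aryl hydrocarbon receptor) and TATAAA, which 14.0%, 28.2% and 12.4% of all 32851 RefSeq windows hold.
Cyp2j5: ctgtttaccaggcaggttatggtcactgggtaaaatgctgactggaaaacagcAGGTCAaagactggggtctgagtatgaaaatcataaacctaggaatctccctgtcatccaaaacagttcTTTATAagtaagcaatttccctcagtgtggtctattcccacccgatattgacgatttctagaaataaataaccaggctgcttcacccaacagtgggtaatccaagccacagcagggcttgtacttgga
Cyp2j11: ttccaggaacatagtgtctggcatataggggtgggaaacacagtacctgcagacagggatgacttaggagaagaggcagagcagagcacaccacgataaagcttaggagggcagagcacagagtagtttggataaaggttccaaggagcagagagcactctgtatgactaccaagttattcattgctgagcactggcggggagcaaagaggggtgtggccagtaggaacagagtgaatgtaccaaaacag
Cyp2j9: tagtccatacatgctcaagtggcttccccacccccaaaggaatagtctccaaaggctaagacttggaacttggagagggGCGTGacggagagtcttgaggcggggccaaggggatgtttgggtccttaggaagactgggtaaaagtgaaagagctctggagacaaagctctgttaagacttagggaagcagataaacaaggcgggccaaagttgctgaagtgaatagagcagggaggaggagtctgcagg

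Cyp2j5, the main renal epoxygenase of the mouse, was at 10334 and 10389.6 in mouse 4001, 8786 in mouse 4002 and 5942 and 5864 in mouse 4007, against 20339 and 20788 in the WT libraries. No LBR-null library came near the WT values, and mouse 4007 was the lowest. The mean was 2.46-fold lower, with a log2 fold change of -1.34 ± 0.40 (limma adjusted p = 0.153). Its window holds AGGTCA and, on the other strand, TATAAA. Cyp2j11 stood at 897 and 788, 533, and 563 and 559.6 against 1803 and 1797, a 2.79-fold difference (log2 fold change -1.51 ± 0.33, limma adjusted p = 0.110). No match to the 3 motifs lies in its window. Cyp2j13 was at 3.44 and 7.10, 9.46, and 13.04 and 11.8 against 18.9 and 13.6 (log2 fold change -0.85 ± 0.64, limma adjusted p = 0.522). Levels this low rest on few reads, and the lowest WT library lay just above the highest LBR-null library.

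Cyp2j9 and Cyp2j6 lie between Cyp2j11 and Cyp2j5 on the chromosome. Cyp2j9 stood at 629.9, 653 and 965 in mice 4001, 4002 and 4007 against 321, with the GCGTG core in its window. Cyp2j6, which is expressed in many tissues, was at 2112 and 2083, 1416, and 1454 and 1452 against 1222 and 1153 (log2 fold change 0.45 ± 0.30, limma adjusted p = 0.470). Both were above the WT mouse in every LBR-null library, while Cyp2j11 and Cyp2j5 were below it in all of them. Cyp2j8, which lies between Cyp2j11 and Cyp2j6, was at 15.6, 24.1 and 36.4 in mice 4001, 4002 and 4007 against 12.9, and its libraries overlapped. No 100-base word of Cyp2j5, Cyp2j6, Cyp2j9 or Cyp2j11 is shared with another gene. Cyp2c44, a renal epoxygenase that lies apart from the main Cyp2c cluster, followed the lower group at 268 and 261, 651, and 385 and 405 against 1109 and 1044 (log2 fold change -1.40 ± 0.48, limma adjusted p = 0.197). Mouse 4002 was closest to the WT level here. In the main Cyp2c cluster on chromosome 19 (mm9, chr19:39081509-40261823), 10 of 14 genes were 2-fold higher (all genes 16.6%) and none was 2-fold lower (all genes 7.94%), at low levels. This count rests on mouse 4001, and without that mouse 5 of 14 were 2-fold higher, beside 16.2% of all genes.

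**Figure D4:**
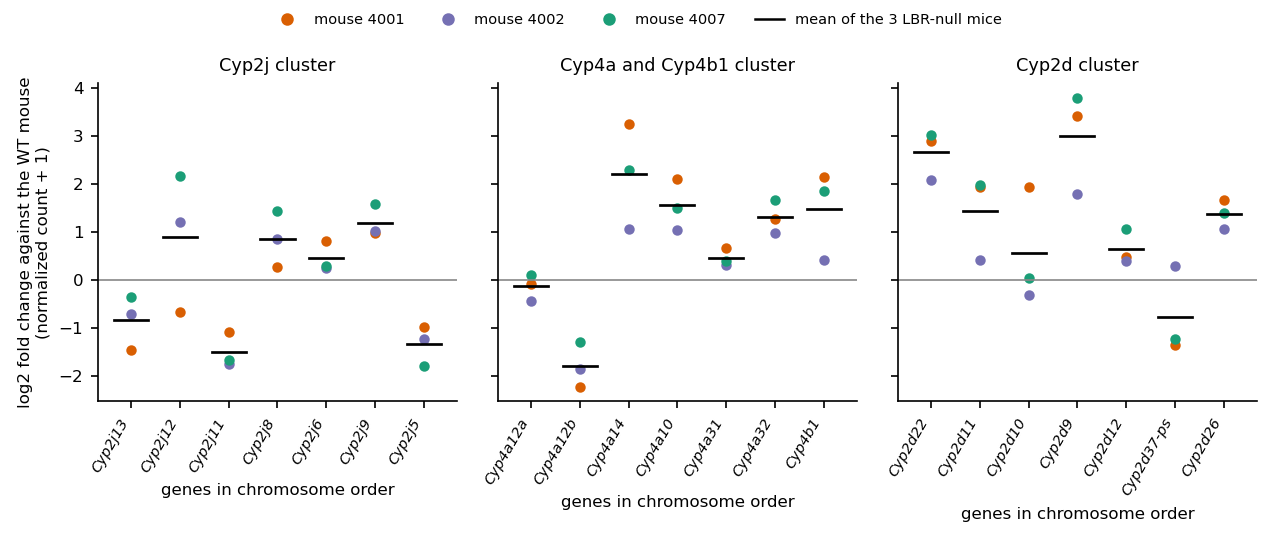
Log2 fold change against the WT mouse (y axis, normalized count + 1) of the genes with a mean of at least 5 in 3 P450 clusters, in chromosome order; points are the 3 LBR-null mice and black lines their mean. In the Cyp2j cluster, Cyp2j11, Cyp2j13 and Cyp2j5 lie below 0 and Cyp2j6, Cyp2j8 and Cyp2j9 above it in all 3 mice, whereas in the Cyp2d cluster all means but that of Cyp2d37-ps lie above 0.

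The other CYP2 genes included Cyp2d9 and Cyp2d22, which had the largest log2 fold changes of the 27 members with a mean of at least 100. Of 26 genes above 0, 13 were 2-fold higher (all genes 16.6%) and none was 2-fold lower (all genes 7.94%), and 8 lay above the WT mouse in every library (all genes 22.2%). Their median log2 fold change was 1.05 over 19 genes. Cyp2d22, the mouse gene most like the human drug-metabolizing enzyme CYP2D6, stood at 7337 and 6793 in mouse 4001, 4022 in mouse 4002 and 7606 and 7873 in mouse 4007, against 975 and 924. The lowest LBR-null library was still more than 4 times the higher WT library. The mean of 6276 ± 1980.5 (SD, n = 3 mice) was 6.61-fold higher, with a log2 fold change of 2.67 ± 0.41 (limma adjusted p = 0.0882). Cyp2d26, the most abundant Cyp2d gene of the kidney, was at 21533 and 20455, 13839, and 17145 and 17757 against 6649 and 6652 (log2 fold change 1.37 ± 0.37, limma adjusted p = 0.129). Cyp2d9, a steroid 16-alpha-hydroxylase known for its male-biased expression in the liver, was at 278 and 296, 92.0, and 345 and 404 against 21.3 and 30.8 (log2 fold change 2.998 ± 0.763, limma adjusted p = 0.122). Its order of mice was that of the Xist level, with the WT mouse lowest, then mice 4002, 4001 and 4007.

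Both Cyp2d26 and Cyp2d9 lie in the Cyp2d cluster on chromosome 15 (mm9, chr15:82200958-82624675), where 4 of 9 genes lay above the WT mouse in every library (all genes 22.2%) and none below (all genes 21.4%). Their upstream windows, at chr15:82794246-82794495 (minus strand) and chr15:82452127-82452376 (plus strand) of GRCm38.p6, are shown because both genes were higher, although 4 other genes of the cluster lie between them. Each holds TATAAA on the other strand between 31 and 23 bases before the start.
Cyp2d26: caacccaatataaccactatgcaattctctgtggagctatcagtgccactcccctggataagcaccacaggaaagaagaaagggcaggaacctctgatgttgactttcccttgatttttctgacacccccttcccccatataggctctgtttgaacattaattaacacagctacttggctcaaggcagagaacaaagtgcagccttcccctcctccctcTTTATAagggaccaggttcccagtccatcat
Cyp2d9: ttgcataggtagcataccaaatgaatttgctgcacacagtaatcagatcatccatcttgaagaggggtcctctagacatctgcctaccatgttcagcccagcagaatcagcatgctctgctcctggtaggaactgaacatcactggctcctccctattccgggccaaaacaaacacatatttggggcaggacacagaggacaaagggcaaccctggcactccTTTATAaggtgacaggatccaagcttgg

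Cyp2e1, which oxidizes ethanol and other small molecules, split the LBR-null mice. It stood at 6117 and 5669.6 in mouse 4001 and at 7378 and 7137 in mouse 4007, but at 2521 in mouse 4002, below the WT libraries at 2784 and 2589. Its log2 fold change of 0.82 ± 0.58 (limma adjusted p = 0.493) turned to -0.09 in mouse 4002 alone. The groups therefore overlapped, and the pair of high-Xist mice were the high ones. Cyp2a22 was low but separated, at 16.1 and 21.3, 13.8, and 16.8 and 17.3 against 4.72 and 2.71 (log2 fold change 1.88 ± 0.53, limma adjusted p = 0.141). Cyp2s1, which also acts on retinoids, stood at 2413, 1319 and 2041 in mice 4001, 4002 and 4007 against 791. Cyp2a5, the coumarin 7-hydroxylase, was at 227, 86.0 and 374 against 298 and overlapped, with mouse 4002 the lowest.

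Of the 3 CYP1 genes, 1 was 2-fold higher and 1 was 2-fold lower. The lower one was Cyp1a1. This enzyme, which oxidizes polycyclic aromatic compounds and is switched on by the aryl hydrocarbon receptor, was at 1.15 and 4.44, 12.0, and 12.1 and 6.38 in mice 4001, 4002 and 4007 against 53.5 and 61.5 in the WT libraries. All LBR-null libraries were far below the WT libraries, at a 7.17-fold lower mean (log2 fold change -2.88 ± 0.80, limma adjusted p = 0.136). The receptor itself, Ahr, and its partner Arnt were at 390 and 1064 on average in the LBR-null mice and 340 and 925 in the WT mouse. Ahrr, the repressor that is a target of the same receptor, was lower in every LBR-null library, at 2.92, 40.4 and 23.5 in mice 4001, 4002 and 4007 against 77.8 (limma adjusted p = 0.375). Mouse 4001 had the lowest level of both Cyp1a1 and Ahrr. The window before the Cyp1a1 start, at chr9:57697363-57697612 of GRCm38.p6 (plus strand), holds the GCGTG core 54 to 50 bases and TATAAA 30 to 25 bases before the start, and it is shown for that core.
Cyp1a1: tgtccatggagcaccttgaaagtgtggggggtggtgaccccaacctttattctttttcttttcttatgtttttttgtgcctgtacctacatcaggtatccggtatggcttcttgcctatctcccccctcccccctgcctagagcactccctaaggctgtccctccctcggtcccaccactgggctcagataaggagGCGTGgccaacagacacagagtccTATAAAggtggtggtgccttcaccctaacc

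The other genes of this family did not share that pattern. Cyp1b1, which oxidizes oestradiol and is usually found outside the liver, was at 1513 and 1690.5, 1757, and 2273 and 2261 against 1521 and 1492 and overlapped (log2 fold change 0.30 ± 0.28, limma adjusted p = 0.613). Cyp1a2, a liver enzyme, was at 28.5, 17.2 and 5.56 in the LBR-null mice against 3.72.

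In the steroid hormone list, Cyp17a1 had the largest log2 fold change of the 74 tested members. Of 6 genes, 3 (Cyp17a1, Cyp19a1 and Cyp21a1) were 2-fold higher (all genes 16.6%) and above the WT mouse in every library (all genes 22.2%), and none was 2-fold lower. Cyp17a1 is the 17-alpha-hydroxylase and 17,20-lyase of androgen synthesis. Its libraries held 107 and 109 normalized counts in mouse 4001, 71.4 in mouse 4002 and 95.9 and 72.9 in mouse 4007, against 3.15 and 1.81 in the WT mouse. The 3 LBR-null mice were close together at 87.9 ± 18.6 (SD, n = 3 mice), 35.5-fold above the WT mouse, with a log2 fold change of 4.65 ± 0.45 (limma adjusted p = 0.0584). Other steroid enzymes were at lower levels. Cyp11a1, which makes pregnenolone from cholesterol, was at 1.15 and 3.55, 3.44, and 2.79 and 8.20 against 3.15 and 0.905. Cyp11b1, the last enzyme of glucocorticoid synthesis, had reads in library 1 of mouse 4001 alone, at 3.44. Cyp11b2, the aldosterone synthase, had reads in library 1 of mouse 4007 alone, at 0.931. Both therefore stayed at or under the level of 3 reads per library.

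Cyp21a1, the steroid 21-hydroxylase, was at 11.5 and 9.76, 19.8, and 6.52 and 2.73 against 1.57 and 2.71 (log2 fold change 1.82 ± 0.83, limma adjusted p = 0.305), and the lowest LBR-null library was within 1 read of the higher WT library. Cyp19a1, the aromatase that makes oestrogens, was at 14.2, 9.46 and 11.0 in the LBR-null mice against 3.38. Of the 8 other adrenal cortex markers, 2 were 2-fold higher, Hsd3b1 at 15.4 against 0.452 and Mc2r at 18.4 against 8.18, and 1 was 2-fold lower. Of the 8, 3 lay above the WT mouse in every library, among them Star at 175 on average against 121, and 1 lay below. The sum of the 8 was 2916 to 3724 in the LBR-null libraries and 2903 and 3230.5 in the WT libraries. Most of it came from Fdx1, Scarb1 and Akr1b7 (1701, 808 and 387 of 3067 in the WT mouse), so it says little about the other markers. Nr5a1, the factor that defines steroidogenic cells, stayed at 0 to 2.79 in all 7 libraries. The 5 adrenal medulla markers summed to at most 20.7 in any library. The part of adrenal tissue in the Cyp17a1 level was not tested.

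Among the bile acid and oxysterol enzymes, 3 of 6 genes were 2-fold higher (all genes 16.6%) and above the WT mouse in every library (all genes 22.2%), and none was 2-fold lower. Cyp27a1, the mitochondrial sterol 27-hydroxylase, was at 1386 and 1269 in mouse 4001, 1307 in mouse 4002 and 2984 and 2980.5 in mouse 4007, against 417 and 397. Mice 4001 and 4002 were alike and mouse 4007 was more than 2 times as high. The mean was 4.6-fold above the WT mouse, with a log2 fold change of 2.09 ± 0.49 (limma adjusted p = 0.115). Cyp39a1, the oxysterol 7-alpha-hydroxylase for 24-hydroxycholesterol, was at 1123 and 1253, 397, and 661 and 649.9 against 310.3 and 300.3 (log2 fold change 1.15 ± 0.56, limma adjusted p = 0.339). Cyp7a1, the rate-limiting enzyme of bile acid synthesis in the liver, was at 12.8, 10.3 and 7.37 in the LBR-null mice against 3.05. Cyp7b1 differed little, at 116 and 159, 147, and 155 and 136 against 115 and 119 (log2 fold change 0.29 ± 0.31, limma adjusted p = 0.667).

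Cyp3a11, Cyp3a25 and several members of the CYP2 family best known from the liver were highest in mouse 4001. Of 8 CYP3A genes above 0, 6 were 2-fold higher on average (all genes 16.6%) and 2 lay above the WT mouse in every library (all genes 22.2%), but only 3 had a mean of at least 5. Cyp3a11, the major CYP3A enzyme of mouse liver, was at 598 and 330.1 in mouse 4001, 110.1 in mouse 4002 and 63.3 and 72.9 in mouse 4007, against 77.2 and 73.3 in the WT libraries. The mean 2.85-fold difference thus came from mouse 4001, and mouse 4007 lay slightly under the WT mouse (log2 fold change 1.004 ± 0.982, limma adjusted p = 0.631). Cyp3a25 was at 60.9 and 35.5, 13.8, and 12.1 and 14.6 against 6.30 and 4.52 (log2 fold change 1.77 ± 0.82, limma adjusted p = 0.312). Within mouse 4001, library 1 exceeded library 2 at least 1.5-fold for 9 of 47 members with a mean of at least 20 (Cyp2c69, Cyp2c70, Cyp2d10, Cyp3a11, Cyp2a4, Cyp3a25, Cyp2c55, Cyp2b9 and Cyp2a5), beside 3.49% of the 14637 genes with such a mean and 5 of the 12 liver markers. These 2 libraries came from the same kidney.

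Of those 9 members, which were chosen by their level in mouse 4001, Cyp2c70, which makes muricholic acids, was at 67.4, 21.5 and 27.6 in mice 4001, 4002 and 4007 against 10.2, and Cyp2a4, a steroid 15-alpha-hydroxylase, was at 117, 26.7 and 23.5 against 22.7. The most abundant members did not differ in this way between the libraries of mouse 4001, with a ratio of 1.02 for Cyp4a14, 1.05 for Cyp2d26 and 1.08 for Cyp2d22. Without library 1 of mouse 4001, which was left out after its liver markers had been seen, the first count became 49 higher and 8 lower in place of 55 and 8, and without mouse 4001 as a whole 43 and 9. Shares of all genes are not given for these counts. With a group without reads set to the level of 3 reads, 38 members were 2-fold higher without mouse 4001, beside 16.2% of all genes. The liver markers summed to 33469, 13800 and 16182 in mice 4001, 4002 and 4007 against 7540.1 in the WT mouse. They did not move as 1 block: in mouse 4007 albumin was at 1546 against 1565, whereas the fibrinogen chain Fga was at 3946 against 529. The part of liver-type RNA in the P450 levels was not tested further.

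**Figure D5:**
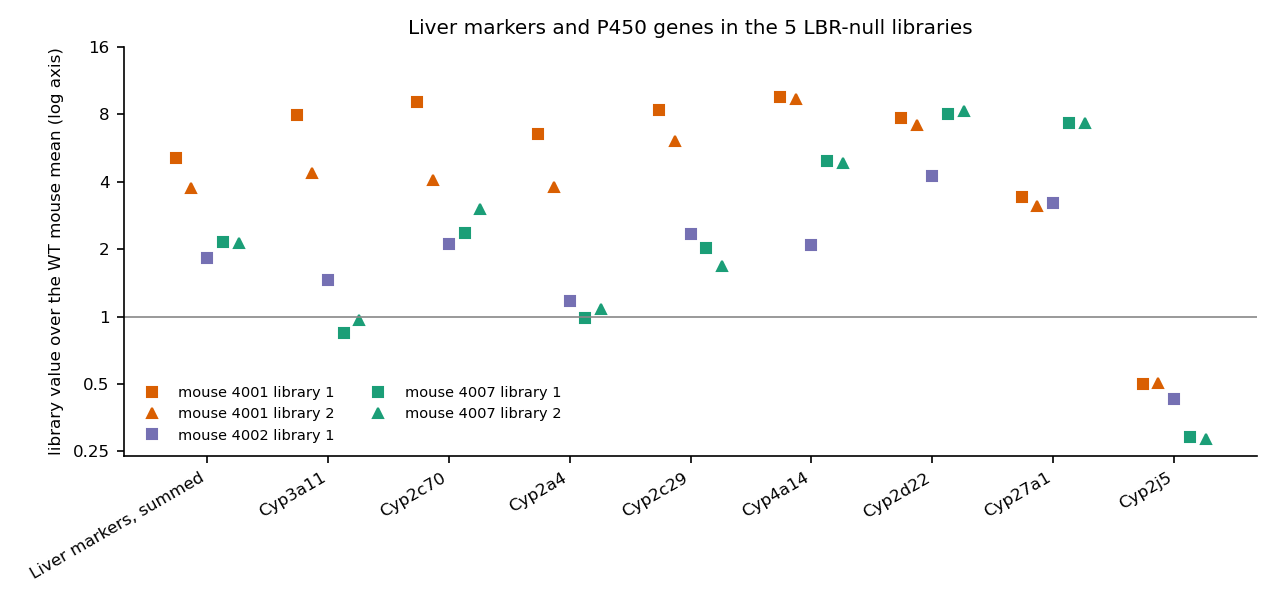
Value of each LBR-null library divided by the mean of the WT mouse (y axis, log scale) for the summed liver markers and 8 P450 genes; colours mark the mice and shapes the library. Library 1 of mouse 4001 (orange square) is highest for the liver markers, Cyp3a11, Cyp2c70, Cyp2a4 and Cyp2c29, whereas both libraries of a mouse nearly coincide for Cyp4a14, Cyp2d22, Cyp27a1 and Cyp2j5.

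Of 3 retinoic acid hydroxylases, 2 were 2-fold higher and none lay above the WT mouse in every library. Cyp26b1, which degrades retinoic acid, was 4.08-fold higher on average but in only 2 of the 3 mice. It was at 50.5 and 49.7 in mouse 4001, just under the WT libraries at 55.9 and 59.7, and at 249.3 in mouse 4002 and 388 and 428 in mouse 4007 (log2 fold change 1.56 ± 1.07, limma adjusted p = 0.481). Its relative Cyp26a1 overlapped between genotypes, at 16.8 on average against 15.3. Cyp20a1, an orphan P450 with no settled substrate, was at 589 and 558, 428, and 615 and 611 against 385 and 384 (log2 fold change 0.47 ± 0.30, limma adjusted p = 0.454).

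Most P450 genes are tissue-restricted and lie in tandem arrays. Of 94 members with a position in the mm9 annotation, 67 lay in 8 clusters of at least 3 genes with gaps under 300 kb. Among members with a position, the Cyp2j cluster was the only 1 of the 8 with 2 or more genes 2-fold lower. The cluster of Cyp4x1, Cyp4a genes and Cyp4b1 on the same chromosome (mm9, chr4:114778928-115320322) had 4 of 8 genes 2-fold higher and 1 lower. Cyp4f37, Cyp4a30b and Cyp4x1os, also 2-fold lower on very few reads, had no position and are in none of these counts. CpG content near gene starts bears on the question of the study, which sorted genes by CpG islands. Only a sequence criterion near the start is used here. The study also used experimentally bound regions and, for genes without islands, searched the gene body, so the classes here are not those of the study. Within 500 bases of the 5′ end, 18 of 92 members above 0 (19.6%) had a 200-base stretch with at least 50% G and C and an observed-to-expected CpG ratio over 0.6, against 70.8% of 18539 genes. Of the 74 members above 0 that lacked such a stretch, 44 (59.5%) were 2-fold higher by the first count and 5 (6.76%) lower, beside 41.5% and 14.3% of the 5412 genes that lacked it. Of the 18 that had one, 8 (44.4%) were 2-fold higher, beside 11.9% of 13127 genes. Among genes with a mean of at least 100 that lacked such a stretch, 8 of 17 members were 2-fold higher and 3 were 2-fold lower, beside 12.1% and 14.6% of 1367 genes. Among those that had one, 6 of 10 members were 2-fold higher and none was lower, beside 3.69% and 3.84% of 9535 genes. In both classes the gap in the share of 2-fold higher genes between members and all genes was smaller among genes above 0 than at a mean of at least 100. No test was run.

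Of 16 genes that supply P450 enzymes with electrons and haem, 6 lay below and 1 above the WT mouse in every library, where 21.4% and 22.2% of all genes above 0 did. None was 2-fold higher and 2 were 2-fold lower, Cpox at 598 on average against 1421 and Uros at 277 against 631. Both make haem precursors. Por, which passes electrons to all microsomal P450 enzymes, was at 2999, 2069.5 and 2809.5 in mice 4001, 4002 and 4007 against 4391 and was lower in every library (log2 fold change -0.76 ± 0.30, limma adjusted p = 0.241). Cyb5a, a second electron donor, was also lower throughout, at 8802 on average against 13059. Limma called none of these 16 genes and DESeq2 called 1, Cpox, as lower.

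Of 22 receptors and factors known to regulate P450 genes, 3 were 2-fold higher (Nr1i3, Ppara and Cebpb) and 3 were 2-fold lower (Ahrr, Esr1 and Nr1h3), where 16.6% and 7.94% of all genes above 0 were, so the list as a whole is not shown to stand apart. Nr1i3, the constitutive androstane receptor, was at 215, 283 and 472 in mice 4001, 4002 and 4007 against 18.2, a 17.8-fold difference (log2 fold change 4.00 ± 0.48, limma adjusted p = 0.0695). Its best known target, Cyp2b10, was rare, at 5.35, 1.72 and 3.23 in these mice against 0.787. With 1 read worth 0.787 to 1.15 normalized counts, these values rest on a few reads per library. Whether Cyp2b10 follows Nr1i3 was not tested. Ppara, the receptor for fatty acids that Cyp4a10 and Cyp4a14 respond to, was at 4638, 2200.2 and 3848 against 1397 (log2 fold change 1.28 ± 0.43, limma adjusted p = 0.186). Mice 4001, 4007 and 4002 stood in the same order for all 3 genes, and also for the summed liver markers. Whether Ppara bears on Cyp4a10 and Cyp4a14 here was not tested. Esr1, the oestrogen receptor, was at 136 on average against 577. Hnf4a, which maintains hepatic and proximal tubule gene expression, was at 9512 on average against 11810. Limma called none of the 21 that were tested, and DESeq2 called Nr1i3 as higher and Esr1 as lower.

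Further enzymes of the same pathways have other names. Cyp51, the lanosterol demethylase of cholesterol synthesis, whose symbol lacks the subfamily letter, was at 495 on average against 2439.8 and lower in every library (log2 fold change -2.34 ± 0.35, limma adjusted p = 0.0843). Ephx2, the soluble epoxide hydrolase that acts on the products of Cyp2c and Cyp2j enzymes, was also lower in every library, at 1576 against 3145 (log2 fold change -1.003 ± 0.247, limma adjusted p = 0.118). Ephx1, the microsomal epoxide hydrolase, overlapped at 4069 against 3904.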

How the data were processed

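Kidney RNA of 4-week-old mice was selected for poly(A) and sequenced as 150 bp read pairs; the right kidney had been frozen, pulverized and divided into aliquots. Per the methods of the study and its processing notes, the authors aligned reads with STAR 2.6.0 to mm9 and deposited 1 table per library whose signal is the read count of a gene divided by the DESeq2 size factor (DESeq2 1.25.1). The counting program, annotation, use of strand and treatment of reads that match several genes are not given in the sources used here, so genes that share sequence may share reads. Whole reads could be recovered from all values above 0 (100% within 0.01 of a whole number), 20694016 to 26333284 per library.

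The labels tie the libraries to mice, and both libraries of a mouse came from 1 kidney, so 1 mean per mouse entered each comparison (3 mice against 1). Errors for LBR-null means are SDs over mice. The test was limma 3.58.1 (R 4.3.3) with an intensity trend on log2(normalized count + 1) of all 17283 genes with a mean of at least 5 over the 4 mice, with Benjamini-Hochberg adjustment over all of them. Its spread comes from the 3 LBR-null mice, and the WT mouse is assumed to vary like them. Because 1 was added, differences of rare genes come out too small on this scale. edgeR 4.0.16 and DESeq2 1.42.0 were run on recovered reads summed per mouse. All 3 were tested on simulated data. Members with every library value were, in each role list, up to 3 with the highest mean if at least 50, the 8 largest differences in each direction (7 were found for lower) among non-overlapping members with a mean of at least 10, and 5 steroid enzymes; other members were chosen after their values were seen and are given per mouse. The members, lists and tests were chosen with earlier results of these data known.

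Positions and CpG content come from mm9 and its GENCODE annotation. Upstream windows come from a RefSeq table (GRCm38.p6) in which 75 of the 101 members had an entry, too few to compare the share of members holding a motif. Shared sequence was measured as 100-base words found in transcripts of another gene. 1 regulator of the lists and its motif are not reported here by name.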

Additional observations from a re-analysis of the deposited data

Results flagged for a closer look

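In 30 named genes the 5 LBR-null libraries were searched for a library whose gap to its nearest neighbour was over 0.71 of the whole range (Dixon's 95% value). Chance gives about 1 in 20 such cases, and 4 were found, although libraries of 1 mouse are not independent. For Cyp11b1 and Cyp11b2 a single library held all the reads, which gives the largest possible gap whatever their number, so these 2 cannot be set against that rate. Cyp2d22 was at 4022 in the library of mouse 4002, under the 6793 to 7873 of the other 4 libraries. Cyp4a29 was at 11.8 in library 2 of mouse 4007, under the 18.9 to 21.4 of the others, which include the other library of that kidney. Cyp11b1 was at 3.44 in library 1 of mouse 4001, the level of 3 reads, and at 0 in the others. Cyp11b2 was at 0.931 in library 1 of mouse 4007, the level of 1 read, and at 0 in the others.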

How the results depend on the processing

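Scaling libraries to equal totals or by TMM moved none of the counts by more than 2 genes (54 or 55 members 2-fold higher, 8 lower) and the median of all genes by at most 0.03. With 5 normalized counts added to both groups, 26 members were 2-fold higher and 5 lower. With a group without reads set to the level of 3 reads, a choice made after seeing the data, 49 were higher and 8 lower. Among members with a mean of at least 5, 5 were 2-fold lower. Among those with a mean of at least 100, a limit chosen after seeing the data, the counts were 14 higher, 3 lower, 18 higher in every library and 3 lower in every library. Mouse 4002 alone gave 33 members 2-fold higher, beside 16.2% of all genes, and there Cyp2e1 turned to -0.0917. It also gave 59 members higher in every library and 15 lower in every library. With 1 LBR-null library against 2 WT libraries any gene separates more easily. These 2 counts therefore cannot be set against the 22.2% and 21.4% of all genes given for 5 LBR-null libraries. DESeq2 called 14 members and limma with the mouse as a random effect over 7 libraries called 13, of which 10 higher and 2 lower were shared. edgeR called 0. Leaving out 1 mouse or library at a time gave 43 to 61 members 2-fold higher, 7 to 10 lower, 37 to 48 higher in every library and 8 to 11 lower in every library in place of 7 (11 without WT library 1), medians of 0.54 to 0.999, and 0 to 10 calls. Counts in every library here also rest on fewer libraries, so the shares of all genes given for the full set do not apply to them. Limma called 10 members without mouse 4001 and 9 without mouse 4002, with 2 LBR-null mice left to estimate the spread; the cause was not tested. For single genes, 374 values kept direction and side of the threshold and 36 passed it under an alternative. No paired analysis was possible because the replicate numbers name libraries of 1 mouse and there is 1 WT mouse. The single WT mouse and the unlabelled sex limit all comparisons, and genes under about 10 normalized counts rest on few reads.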
